A study of Mus musculus with 9 samples.

Results

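The genes described here are 41 chromatin regulators measured in mouse brain: enzymes that methylate, acetylate or demethylate histones, the CHD and SWI/SNF nucleosome remodellers, the 4 HIRA complex genes Hira, Ubn1, Ubn2 and Cabin1, and the POU transcription factor gene Pou2f1. They were taken by name from a list of 41 symbols, of 54446 gene identifiers in the count tables, and all 41 were found and passed the filter on low counts, which left 17355 genes. The list and the question it carries, whether Ubn2 stands alone, were set with earlier results of these counts known. The levels of its members in the 3 groups are therefore given as a description, without a test. The count tables came from brain tissue of adult male mice, 3 to 4 months old. Wild-type mice (labelled B6N) and heterozygous knockouts of either gene, Tfap2a+/- and Tfap2b+/-, gave 3 libraries per genotype. Tfap2a and Tfap2b encode the transcription factors AP-2 alpha and AP-2 beta. No further allele or treatment is named, and the construction of the alleles and the part of the brain taken are not given in the sources used here. The labels do not say whether replicates are separate animals. The p-values therefore rest on a spread between libraries that could be technical.

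DNA in the nucleus is wound around histones, and the enzymes described here decide how tightly and with which marks. KMT2A to KMT2D and the SETD1 enzymes write the H3K4 methyl mark of promoters and enhancers, while SETD2, NSD1 and ASH1L act on H3K36. CHD and SWI/SNF proteins use ATP to slide or evict nucleosomes, p300 and CBP acetylate histones at active enhancers, and KDM proteins take methyl groups off. The HIRA complex places a histone H3 variant into chromatin without DNA replication, which is the main way neurons, as non-dividing cells, renew their histones. Ubinuclein-1 and ubinuclein-2, the products of Ubn1 and Ubn2, are alternative partners of HIRA in that complex, and cabin-1, from Cabin1, is a further subunit. Loss of 1 copy of many of these genes, among them KMT2A, KMT2D, EHMT1, CHD7, CHD8, ARID1B and CREBBP, causes developmental disorders in people.

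Depth was 21946800 to 29214975 assigned counts a library, and the 41 genes together held 5726 to 6726 CPM, the TMM-scaled and depth-corrected count used throughout. The least counted of them, Hira, had 228 to 343 counts per library. Tfap2b itself was at 5.81 to 32.9 CPM across the libraries labelled Tfap2b+/- and 0.715 to 14.8 CPM in the wild-type libraries. Its mean was thus higher and not lower under that label, but the groups overlapped (log2 fold 1.42 ± 0.98 SE). Tfap2a stood at 0.223 to 0.461 CPM in Tfap2a+/- and 0.263 to 0.734 CPM in the wild-type libraries, so neither gene could check the labels. Because of its higher Tfap2b mean, the Tfap2b group is called "labelled Tfap2b+/-" throughout. Neuron markers as a brain check (Snap25, Syt1, Rbfox3, Tubb3, Slc17a7 and Gad1) were present in all 9 libraries, with a summed level of 4550 to 8200 CPM. Wild-type library 2 held 3095 CPM of choroid plexus markers and Tfap2a+/- library 1 held 857, against 282 CPM or less elsewhere. Library 1 labelled Tfap2b+/- held 68.1 CPM of serotonergic hindbrain markers, against 2.30 CPM or less elsewhere, and the other libraries of that label (1.55 and 2.30 CPM) also lay above the wild-type and Tfap2a+/- libraries (0.517 to 1.27 CPM). These 3 libraries are called marker-high below. Library 3 labelled Tfap2b+/- was not among them but held 123.5 CPM of olfactory bulb markers, against 18.7 CPM or less elsewhere. Oligodendrocyte markers were at 2508 CPM in that library and 2107 CPM in Tfap2a+/- library 3, against 4080 to 6847 CPM elsewhere. Striatum markers were at 1708 and 1519 CPM in Tfap2a+/- libraries 1 and 2, against 602 CPM or less elsewhere.

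Ubn2 had the highest log2 fold of the 41 genes in the libraries labelled Tfap2b+/-, and the other 3 HIRA complex genes lay on the other side of 0 there. The promoter sequences of the complex are shown because the list is read for AP-2 mutants. AP-2 proteins bind the palindrome GCCNNNGGC, which reads the same on both strands. Each window runs from 250 bases before to 50 after the RefSeq start, build GRCm38.p6, on the strand of the gene, with any match to the palindrome in capitals. Pou2f1 and Kmt2a follow, the first as the member with the highest Pearson r with Ubn2 over the 9 libraries and the second as a methyltransferase gene with 2 matches.
Ubn2 (chr6:38433675-38433974, plus strand): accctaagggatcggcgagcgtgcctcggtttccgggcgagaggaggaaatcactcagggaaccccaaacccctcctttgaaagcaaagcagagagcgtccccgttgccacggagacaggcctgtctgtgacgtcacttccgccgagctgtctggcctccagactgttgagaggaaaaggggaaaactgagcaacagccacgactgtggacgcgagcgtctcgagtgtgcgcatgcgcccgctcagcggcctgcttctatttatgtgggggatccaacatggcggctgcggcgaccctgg
Ubn1 (chr16:5049807-5050106, plus strand): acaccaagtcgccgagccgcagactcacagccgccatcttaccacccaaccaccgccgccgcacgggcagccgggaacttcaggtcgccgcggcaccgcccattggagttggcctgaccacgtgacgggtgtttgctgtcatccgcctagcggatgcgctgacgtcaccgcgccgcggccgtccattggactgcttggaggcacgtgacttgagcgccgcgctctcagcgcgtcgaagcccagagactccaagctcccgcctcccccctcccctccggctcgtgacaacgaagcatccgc
Hira (chr16:18876500-18876799, plus strand): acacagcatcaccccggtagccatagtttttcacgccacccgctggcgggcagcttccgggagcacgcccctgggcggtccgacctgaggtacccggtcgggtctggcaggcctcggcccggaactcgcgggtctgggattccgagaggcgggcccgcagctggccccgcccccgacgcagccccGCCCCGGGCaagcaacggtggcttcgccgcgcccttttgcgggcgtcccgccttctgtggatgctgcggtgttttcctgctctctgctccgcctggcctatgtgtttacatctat
Cabin1 (chr10:75764308-75764607, minus strand): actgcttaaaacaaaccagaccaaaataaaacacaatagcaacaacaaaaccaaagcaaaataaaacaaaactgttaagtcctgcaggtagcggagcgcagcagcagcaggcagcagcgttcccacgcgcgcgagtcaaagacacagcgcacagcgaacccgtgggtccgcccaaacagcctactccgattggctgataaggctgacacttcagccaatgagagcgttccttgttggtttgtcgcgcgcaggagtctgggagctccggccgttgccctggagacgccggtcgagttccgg
Pou2f1 (chr1:166002585-166002884, minus strand): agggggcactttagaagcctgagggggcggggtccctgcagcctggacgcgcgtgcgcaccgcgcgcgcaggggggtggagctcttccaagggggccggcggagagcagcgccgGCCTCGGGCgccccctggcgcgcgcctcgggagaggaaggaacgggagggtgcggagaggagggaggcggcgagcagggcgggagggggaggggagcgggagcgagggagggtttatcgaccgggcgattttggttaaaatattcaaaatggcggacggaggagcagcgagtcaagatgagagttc
Kmt2a (chr9:44881240-44881539, minus strand): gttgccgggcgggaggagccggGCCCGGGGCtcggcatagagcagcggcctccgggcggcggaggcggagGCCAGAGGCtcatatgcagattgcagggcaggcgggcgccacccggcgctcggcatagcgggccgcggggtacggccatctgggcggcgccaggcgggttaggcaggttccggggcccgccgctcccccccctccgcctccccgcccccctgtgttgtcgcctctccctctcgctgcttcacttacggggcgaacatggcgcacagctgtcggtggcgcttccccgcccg
Of these 6 windows, those of Hira, Pou2f1 and Kmt2a held the palindrome, and those of Ubn2, Ubn1 and Cabin1 did not hold these letters. Over all 28 members with a RefSeq promoter entry (36 windows), 11 genes or 39.3% held it in at least 1 window, against 18.5% of 27025 genes with an entry. The member windows were richer in CpG, with a median of 31.5 CpG against 7 over all 32851 windows, and the part of base composition in the share was not tested. Beyond these 6, matches were found in Kmt2c, Kat6b and Crebbp, with 2 each, and in Chd8, Chd4, Chd5, Arid1a and Smarcc2. The octamer ATGCAAAT, the motif that the Pou2f1 product binds, was searched on both strands and was found in 1 of the 28 members, Chd6, or 3.57%, against 1.97% of all genes with an entry. A match is a description of letters and not of binding.

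Ubn2 (ENSMUSG00000038538.17, chromosome 6, 38433950 to 38524825, plus strand, GRCm38) was at 68.2, 63.7 and 70.4 CPM for libraries 1 to 3 of wild type. It was at 76.0, 68.6 and 73.5 CPM in Tfap2a+/- and at 96.9, 88.2 and 97.1 CPM across the libraries labelled Tfap2b+/-. The lowest library labelled Tfap2b+/- lay above the highest of the other 6, while wild type and Tfap2a+/- overlapped. The log2 fold against wild type was 0.48 ± 0.08 (SE) in the libraries labelled Tfap2b+/-, a ratio of 1.40, and 0.11 ± 0.08 in Tfap2a+/-. In the direct comparison of Tfap2a+/- with the libraries labelled Tfap2b+/- it was -0.37 ± 0.08. Both heterozygotes were set against the same 3 wild-type libraries, so their values are not independent. Without the 3 marker-high libraries the log2 folds of Ubn2 were 0.43 and 0.04.

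Ubn1 (ENSMUSG00000039473.8, chromosome 16, 5050057 to 5086289), the paralog, was at 69.4, 80.4 and 75.2 CPM in the wild-type libraries and 71.4, 71.3 and 72.3 CPM in Tfap2a+/-. In the libraries labelled Tfap2b+/- it was at 57.0, 67.6 and 74.7 CPM, so library 1 was the lowest of all 9 and library 3 lay within the wild-type range. Its log2 fold there was -0.18 ± 0.10 (SE), and -0.07 ± 0.10 in Tfap2a+/-. Within each library the ratio of Ubn2 to Ubn1 counts does not depend on scaling. That ratio was 0.984, 0.792 and 0.936 in wild type, 1.06, 0.962 and 1.02 in Tfap2a+/-, and 1.70, 1.31 and 1.30 in the libraries labelled Tfap2b+/-. All 3 of the last lay above the other 6, and library 1, a marker-high library, was the farthest out.

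Hira (ENSMUSG00000022702.16, chromosome 16, 18877037 to 18970309), the histone chaperone that gives the complex its name, was at 12.5, 11.2 and 11.7 CPM in the wild-type libraries and 10.9, 10.2 and 12.3 CPM in Tfap2a+/-. It was at 9.74, 11.6 and 10.6 CPM across the libraries labelled Tfap2b+/-, where the groups overlapped and the log2 fold was -0.15 ± 0.11 (SE). Cabin1 (ENSMUSG00000020196.10, chromosome 10, 75646112 to 75764341) was at 100.8, 121.6 and 86.9 CPM in the wild-type libraries, 93.9, 98.5 and 97.5 CPM in Tfap2a+/- and 78.4, 92.5 and 103.7 CPM across the libraries labelled Tfap2b+/-. Its log2 fold of -0.17 ± 0.14 (SE) lay within the spread between replicates. Without the 3 marker-high libraries the log2 fold of Cabin1 turned to 0.07, that of Ubn1 was -0.02 and that of Hira was -0.12. The size of the Ubn1 value and the side on which Cabin1 lay thus rested on those libraries, and the side of Ubn2 did not.

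**Figure D1:**
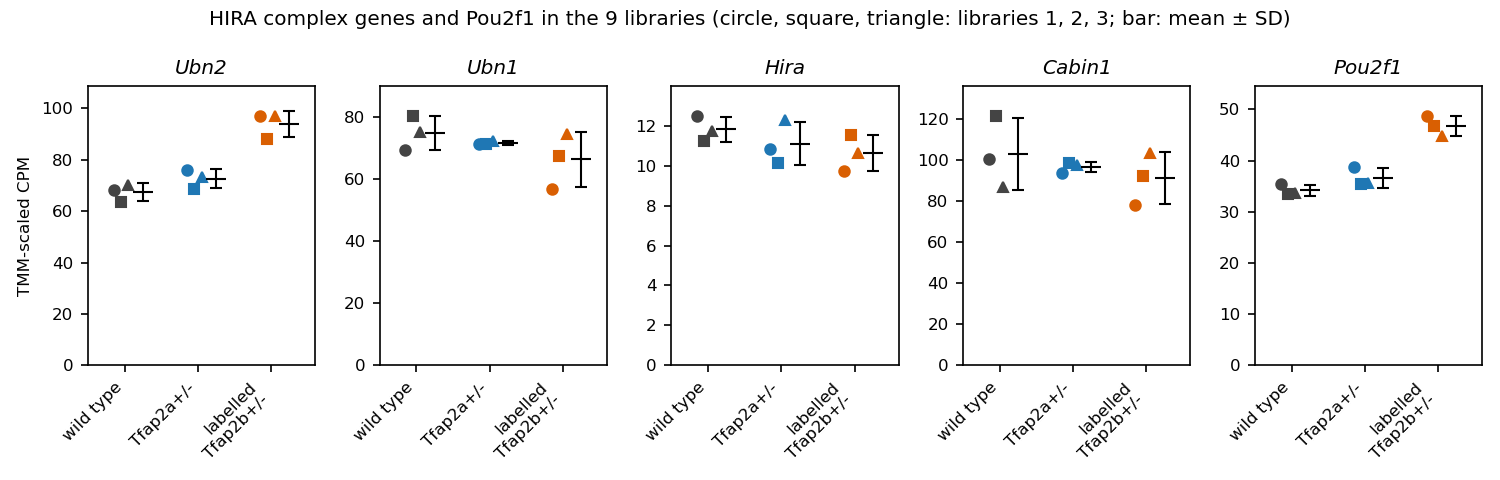
TMM-scaled CPM (vertical axes from 0) of Ubn2, Ubn1, Hira, Cabin1 and Pou2f1 in the 9 libraries, by genotype, with circle, square and triangle for libraries 1 to 3 and the mean ± SD beside them. Ubn2 and Pou2f1 sit higher in all 3 libraries labelled Tfap2b+/- than in the other 6, at 88.2 to 97.1 and 44.7 to 48.7 CPM, while the other 3 genes overlap between groups.

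Pou2f1 (ENSMUSG00000026565.18, chromosome 1, 165865154 to 166002678, minus strand), which encodes the broadly expressed octamer-binding factor OCT-1, was the member nearest to Ubn2. It stood at 35.4, 33.4 and 33.7 CPM in the wild-type libraries, 38.8, 35.4 and 35.6 CPM in Tfap2a+/-, and 48.7, 46.8 and 44.7 CPM across the libraries labelled Tfap2b+/-. The 3 groups lay in that order, the middle one a little above the first, and the lowest Tfap2a+/- library all but touched the highest wild-type library. The log2 folds against wild type were 0.45 ± 0.07 (SE) in the libraries labelled Tfap2b+/- and 0.10 ± 0.07 in Tfap2a+/-.

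Of the 11 genes classed here under H3K4 and H3K36 methyltransferases, 10 had a log2 fold above 0 in the libraries labelled Tfap2b+/-. Whether each product has that activity was not examined. The median of the 11 was 0.14. For 7 of them (Kmt2a, Kmt2b, Kmt2c, Kmt2d, Kmt2e, Setd2 and Nsd1) every library labelled Tfap2b+/- lay above every wild-type library. Over all 17355 genes tested, groups lay apart in that direction for 8.84% in this comparison, and nothing is read from the count, since the list was set with this comparison known. In Tfap2a+/- the median of the 11 was 0.03, the range -0.02 to 0.09, and no gene had groups that lay apart, in either direction (all genes: 4.85% higher and 4.32% lower).

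The largest log2 folds in this class were those of Kmt2a and Kmt2d. Kmt2a, whose product MLL1 methylates H3K4 and is needed for adult neurogenesis, was at 216.7, 213.3 and 285.2 CPM in the wild-type libraries and 264.8, 229.9 and 236.6 CPM in Tfap2a+/-. It was at 319.6, 290.9 and 310.9 CPM across the libraries labelled Tfap2b+/-, each above the highest wild-type library. Its log2 fold was 0.37 ± 0.12 (SE), and ran from 0.27 without the 3 marker-high libraries to 0.51 without wild-type library 3. Kmt2d, which encodes the enhancer H3K4 methyltransferase MLL4, was at 166.1, 174.2 and 187.8 CPM in the wild-type libraries, 187.9, 169.7 and 186.5 CPM in Tfap2a+/-, and 213.4, 227.3 and 233.9 CPM across the libraries labelled Tfap2b+/-. The log2 fold was 0.35 ± 0.08 (SE) and the gap between the groups was wider than either group. Its close relative Kmt2c had means of 147.8 ± 11.6 and 179.5 ± 10.4 CPM in the wild-type libraries and in the libraries labelled Tfap2b+/- (SD, n = 3, log2 fold 0.28 ± 0.10 SE). The other genes with groups apart had smaller values, 0.13 for Kmt2b, 0.19 for Kmt2e and 0.18 for Setd2, whose product writes H3K36 trimethylation. Kmt2e had 0.10 without wild-type library 2, and Nsd1 went from 0.14 to 0.07 without library 3 labelled Tfap2b+/-. The summed CPM of Kmt2a to Kmt2d was 586 to 697 in wild type, 596 to 686 in Tfap2a+/- and 767 to 798 in the libraries labelled Tfap2b+/-.

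The SETD1 genes, which carry most of the genome's H3K4 trimethylation, had log2 folds of 0.02 ± 0.08 (SE) for Setd1a and 0.10 ± 0.10 for Setd1b in the libraries labelled Tfap2b+/-. Ash1l, an H3K36 methyltransferase, had -0.01 ± 0.12, and the less studied Setd5 had 0.08 ± 0.07. Nsd1 was at 183.6, 204.4 and 203.2 CPM in the wild-type libraries and 208.8, 206.4 and 234.6 CPM across the libraries labelled Tfap2b+/-, and the groups all but touched. Of the pair that writes H3K9 dimethylation, Ehmt1 (GLP) was at 33.0 to 38.0 CPM over all 9 libraries. Ehmt2 (G9a) was at 179.2, 171.5 and 170.0 CPM in the wild-type libraries, 175.9, 184.3 and 181.6 CPM in Tfap2a+/- and 135.8, 160.8 and 182.4 CPM across the libraries labelled Tfap2b+/-. Those last 3 spread over the widest range of the groups, and without library 1 the log2 fold of Ehmt2 moved from -0.12 to -0.01.

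All 9 CHD remodeller genes had a log2 fold above 0 in the libraries labelled Tfap2b+/- (median 0.18), 4 of them with groups that lay apart upward (Chd1, Chd6, Chd8 and Chd9), against 8.84% of all genes. The 4 genes of the CHD6 to CHD9 subfamily had 0.20 to 0.39. Chd3, Chd4 and Chd5, the ATPases of the NuRD repressor complex, had 0.00 to 0.08 and groups that overlapped. Chd9 was at 82.0, 80.8 and 97.9 CPM in the wild-type libraries, 100.5, 88.3 and 106.5 CPM in Tfap2a+/- and 112.6, 104.7 and 114.9 CPM across the libraries labelled Tfap2b+/-. Its log2 folds were 0.35 ± 0.10 (SE) in the last group and 0.18 ± 0.10 in Tfap2a+/-. Chd7, the gene of CHARGE syndrome, was expressed low at 16.6, 22.2 and 22.8 CPM in the wild-type libraries, 25.1, 18.1 and 12.5 CPM in Tfap2a+/- and 31.8, 27.3 and 21.6 CPM across the libraries labelled Tfap2b+/-. Its log2 fold of 0.39 ± 0.25 (SE) was the third of the list, but the groups overlapped and it had 0.26 without wild-type library 1. Chd8, an autism gene, was at 126.8 to 139.4 CPM in the wild-type libraries and 153.1 to 158.5 CPM across the libraries labelled Tfap2b+/- (log2 fold 0.20 ± 0.07 SE). Chd6 stood at 116.7 to 128.3 against 140.6 to 179.2 CPM, and its log2 fold went from 0.32 to 0.20 without library 1 labelled Tfap2b+/-. Chd3, the most abundant of the 41 genes, ran from 611.6 to 966.5 CPM within the libraries labelled Tfap2b+/- alone, and its log2 fold turned from 0.01 to -0.20 without library 3 of that group. Chd1 and Chd2, which act with transcription, had 0.07 and 0.18, and Chd2 had 0.08 without the 3 marker-high libraries.

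SWI/SNF subunit genes lay on both sides of 0. In the libraries labelled Tfap2b+/- 3 of 7 had a log2 fold above 0, the median was -0.08, and groups lay apart for 2 genes, Smarca4 and Smarcc2, both lower (all genes: 7.63% lower). Smarcc1, a core scaffold subunit, had the lowest log2 fold of the 41 genes, -0.23 ± 0.10 (SE). It was at 90.5, 97.7 and 85.9 CPM in the wild-type libraries, 87.3, 96.6 and 87.2 CPM in Tfap2a+/- and 70.6, 74.5 and 88.6 CPM across the libraries labelled Tfap2b+/-, where library 3 lay within the wild-type range. Without the 3 marker-high libraries its log2 fold was -0.11. Smarcc2, the scaffold that prevails in neurons, was at 384.9, 402.8 and 391.7 CPM in the wild-type libraries. It was lower in all libraries of both other groups, at 340.5, 346.6 and 370.0 CPM in Tfap2a+/- and 358.9, 359.1 and 369.7 CPM across the libraries labelled Tfap2b+/-. The log2 folds were -0.16 ± 0.07 (SE) and -0.12 ± 0.07. Smarca4 (BRG1), an ATPase of the complex, was at 189.7 to 202.4 CPM in the wild-type libraries and 182.4 to 187.4 CPM across the libraries labelled Tfap2b+/-. The alternative ATPase gene Smarca2 (BRM) had the highest log2 fold of the 41 in Tfap2a+/-, 0.18 ± 0.13 (SE), with 368.3, 296.3 and 356.7 CPM in the wild-type libraries, 336.0, 401.7 and 420.9 CPM in Tfap2a+/- and 317.8, 342.0 and 385.5 CPM across the libraries labelled Tfap2b+/-. All 3 groups overlapped, and the Tfap2a+/- value ran from 0.10 without wild-type library 2 to 0.28 without Tfap2a+/- library 1. The targeting subunits Arid1a, Arid1b and Arid2 had 0.07, -0.11 and 0.11 in the libraries labelled Tfap2b+/-, and without the 3 marker-high libraries Arid1b turned to 0.08 and Arid1a had 0.22. Arid1a turned to -0.04 without library 3 labelled Tfap2b+/-.

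All 4 acetyltransferase genes had a log2 fold above 0 in the libraries labelled Tfap2b+/-, from 0.10 for Crebbp (CBP) to 0.23 for Kat6b, and groups lay apart upward for Ep300 and Kat6a (all genes: 8.84%). Without library 3 labelled Tfap2b+/- Crebbp had 0.03, and without wild-type library 1 Ep300 had 0.07. Ep300 (p300) had a mean of 108.6 CPM in the wild-type libraries and 118.7 CPM over the libraries labelled Tfap2b+/-, where the lowest library (116.4) all but touched the highest wild-type library (116.0). Kat6a was at 91.3, 103.5 and 102.5 CPM in the wild-type libraries, 105.1, 92.0 and 96.5 CPM in Tfap2a+/- and 108.2, 107.4 and 119.5 CPM across the libraries labelled Tfap2b+/- (log2 fold 0.17 ± 0.08 SE). Kat6b was at 74.9, 62.7 and 68.5 CPM in the wild-type libraries, 69.5, 74.7 and 87.9 CPM in Tfap2a+/- and 63.9, 75.5 and 101.9 CPM across the libraries labelled Tfap2b+/-. Without library 3 labelled Tfap2b+/- its log2 fold there moved from 0.23 to 0.02.

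The 3 demethylase genes had log2 folds of 0.01 (Kdm6b and Kdm5b) to 0.08 (Kdm5a) in the libraries labelled Tfap2b+/-. Kdm5a, which removes H3K4 methylation, was at 64.5, 68.1 and 67.1 CPM in the wild-type libraries, 69.7, 61.2 and 66.2 CPM in Tfap2a+/- and 70.6, 69.3 and 71.2 CPM across the libraries labelled Tfap2b+/-. These last lay just above the wild-type range. Kdm6b, an H3K27 demethylase whose RNA is induced by neuronal activity, had the lowest log2 fold of the 41 in Tfap2a+/-, -0.32 ± 0.22 (SE). It was at 30.8, 50.5 and 43.8 CPM in the wild-type libraries, 43.0, 26.9 and 30.6 CPM in Tfap2a+/- and 46.9, 36.2 and 42.8 CPM across the libraries labelled Tfap2b+/-. Every group held both low and high libraries, and the Tfap2a+/- value ran from -0.53 without Tfap2a+/- library 1 to -0.15 without wild-type library 2.

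**Figure D2:**
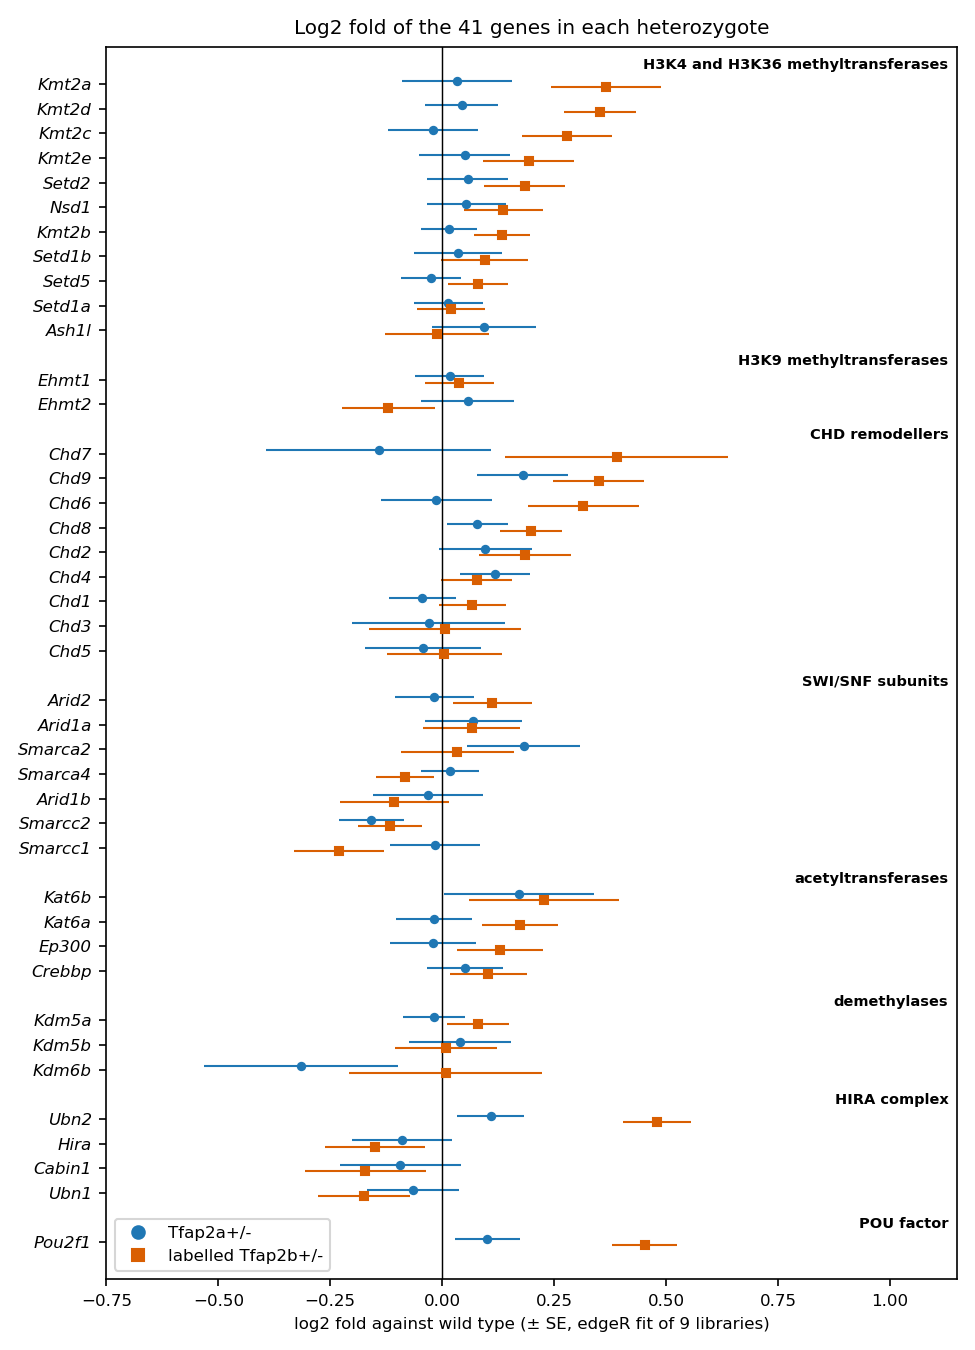
Log2 fold against wild type (horizontal axis, ± SE from the edgeR fit of 9 libraries) of the 41 genes by class, in Tfap2a+/- (circles) and in the libraries labelled Tfap2b+/- (squares). Ubn2 (0.48) and Pou2f1 (0.45) lie farthest to the right in the libraries labelled Tfap2b+/-, followed by Chd7, Kmt2a, Kmt2d and Chd9 (0.35 to 0.39), and Smarcc1 (-0.23) farthest to the left.

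Over all 41 genes, the median log2 fold in the libraries labelled Tfap2b+/- was 0.08, with 32 above 0 (49.7% of all genes tested), against a median of -0.00 over all genes tested and -0.02 over protein-coding genes. Groups lay apart upward for 16 members and downward for 2 (all genes: 8.84% and 7.63%). Without library 3 labelled Tfap2b+/- the median was 0.03, with 25 above 0, and without the 3 marker-high libraries it was 0.13, with 34 above 0. In Tfap2a+/- the median was 0.02, with 23 above 0 (48.2% of all genes), 1 member apart upward (Pou2f1) and 1 downward (Smarcc2). With Tfap2a+/- set against the libraries labelled Tfap2b+/-, the median was -0.08, 12 members were above 0 (48.3% of all genes), and groups lay apart upward for 1 member and downward for 12 (all genes: 8.03% and 9.2%). By edgeR's adjusted p no gene was called in any of the 3 comparisons (0% of 17355), members included. At an unadjusted p under 0.05 edgeR gave 1841 genes in the libraries labelled Tfap2b+/- (10.6%, with 6.46% higher and 4.15% lower). It gave 666 in Tfap2a+/- (3.84%, with 2.15% higher and 1.68% lower). Between the heterozygotes it gave 1997 (11.5%, with 4.98% higher and 6.53% lower). DESeq2 called 175, 30 and 228 genes in the same order, or 1.01%, 0.173% and 1.31%. Of the 41 members it called 3, 0 and 3 in that order. These were Ubn2, Pou2f1 and Kmt2d, both in the libraries labelled Tfap2b+/- against wild type and between the heterozygotes. Since the list was set with these comparisons known, no p-value of a member is given and nothing is read from the members' counts.

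Ubn2 thus had the first rank of the 41 without standing alone: Pou2f1 was lower by less than either SE. Of all genes tested, 11.2% had a log2 fold at least as high as that of Ubn2 in the libraries labelled Tfap2b+/-. It was in place 5 in Tfap2a+/-, after Smarca2, Chd9, Kat6b and Chd4. Over the alternatives it ranked between the first and the third place in the libraries labelled Tfap2b+/-. Across the 9 libraries, the members whose log2 CPM was most like that of Ubn2 by Pearson r were Pou2f1 (Pearson r = 0.95, Spearman rho = 0.90), Kmt2d (0.93 and 0.92) and Kmt2a (0.89 and 0.93), given as descriptions with n = 9. The 9 libraries share their scaling and hold the difference between groups, and with each group's mean removed r was 0.37, 0.42 and 0.72. The order depends on the measure: Chd9 had the highest rho (0.95), and with group means removed Setd1b and Chd9 (0.79 each) and Kmt2e (0.76) came first. The HIRA complex partners had r = -0.60 for Ubn1, -0.47 for Hira and -0.52 for Cabin1, and with group means removed -0.23, 0.03 and -0.51.

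**Figure D3:**
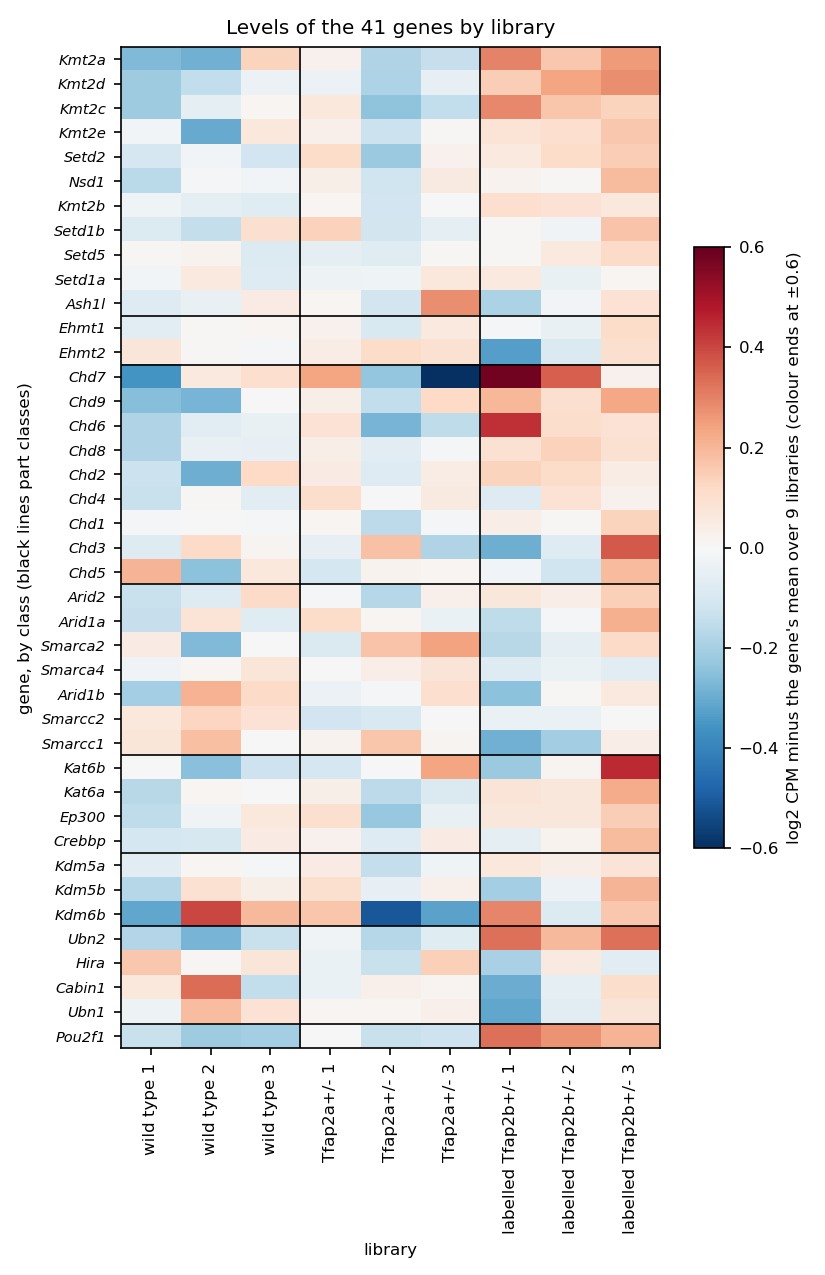
Log2 CPM of each of the 41 genes (rows, by class) minus its mean over the 9 libraries, for each library (columns), with colour from blue (lower) to red (higher) that ends at ±0.6. Red runs through Kmt2a to Kmt2e, Chd6 to Chd9, Ubn2 and Pou2f1 in all or most of the 3 libraries labelled Tfap2b+/-, while Chd3, Kat6b and Ehmt2 differ mainly within that group.

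The members are long genes, and their log2 folds in the libraries labelled Tfap2b+/- went with exon length. Merged exon lengths ran from 5.49 kb (Ehmt2) to 23.1 kb (Chd9), with Ubn2 the second longest at 21.4 kb, and 36 of the 41 fell in the longest quartile of protein-coding genes, above 6.86 kb. Over the 41 genes, Pearson r between log2 exon length and log2 fold was 0.71 (rho 0.71) in the libraries labelled Tfap2b+/- and 0.46 (rho 0.41) in Tfap2a+/-, as a description over genes that share libraries and are not replicates. With the span of the gene including introns, r was 0.27 and 0.32. All protein-coding genes showed the same order: medians in the libraries labelled Tfap2b+/- were -0.06, -0.03, -0.01 and 0.03 from the shortest to the longest quartile. In Tfap2a+/- these medians also rose, over a smaller range, from -0.027 to -0.001. By quartile of gene span, medians in the libraries labelled Tfap2b+/- rose from -0.055 to 0.014. For the 403 protein-coding genes with at least 15 kb of exon, a bound chosen after seeing the data, the median was 0.09 with 65.5% above 0, against -0.00 and 48.6% in Tfap2a+/-. The 12 members among them had a median of 0.30, all above 0, in the libraries labelled Tfap2b+/-. Of the 403, 32 genes or 7.94% had a log2 fold at least that of Ubn2. The part of exon length in these results was not tested.

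**Figure D4:**
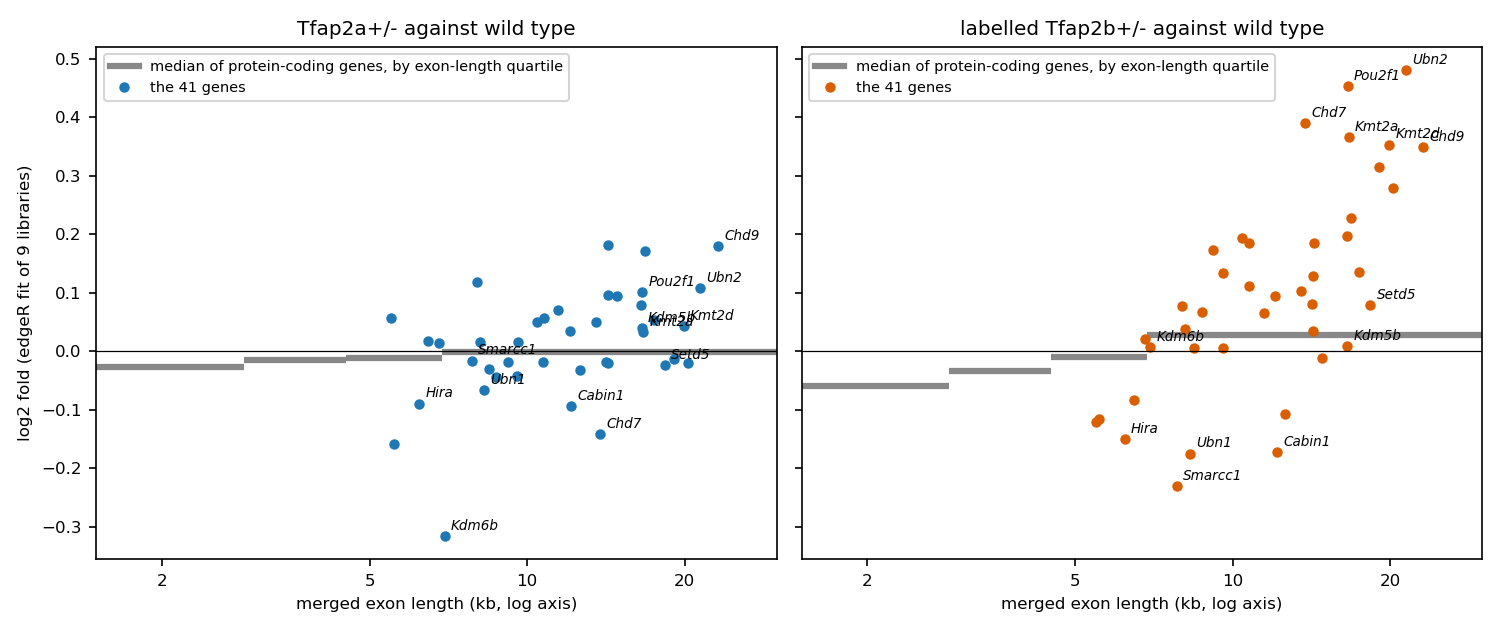
Log2 fold against wild type (vertical axis) by merged exon length (kb, log axis) for the 41 genes in Tfap2a+/- (left) and in the libraries labelled Tfap2b+/- (right), with grey bars for the median of all protein-coding genes tested in each quartile of exon length. On the right the points climb with length, up to Ubn2 with 21.4 kb and 0.48, and the grey bars climb from -0.06 to 0.03.

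Other measures moved with the same libraries. The share of fragments assigned to no exon of the sense strand was 11.1% to 11.8% in the libraries labelled Tfap2b+/-, 8.07% to 8.96% in Tfap2a+/- and 7.30% to 8.86% in wild type. The exact two-sided permutation test gave p = 0.1 for the first group against wild type, the smallest that 3 against 3 libraries allow, and 0.3 after Benjamini-Hochberg adjustment over 9 such tests. Nuclear-retained noncoding RNAs (Malat1, Neat1, Kcnq1ot1, Meg3, Snhg11, Snhg14 and Miat) had a higher mean for 7 of 7 genes there. Their summed level was 5593 to 7618 CPM, against 2842 to 4969 CPM in the wild-type libraries and 4055 to 5191 CPM in Tfap2a+/-. Neat1 and Miat overlapped with wild type, and the others lay above every wild-type library. Neat1 was lowest of all 9 libraries in library 3 labelled Tfap2b+/- (38.5 CPM). The annotation gives Snhg11 as protein-coding. Striatum markers were higher in all Tfap2a+/- libraries (557 to 1708 CPM, 6 of 6 genes with a higher mean) than in the libraries labelled Tfap2b+/- (131 to 485 CPM), and overlapped with wild type (196 to 602 CPM). Neuron markers had a lower mean for 5 of 6 genes, with a sum of 4550 to 6768 CPM in the libraries labelled Tfap2b+/- against 6786 to 7913 CPM in the wild-type libraries. No neuron, striatum or nuclear-retained marker was at 0 in any library. In bulk tissue fewer cells of a type and less RNA per cell cannot be told apart. The part of these measures in the member values was not tested. Antisense counts at the 41 genes made up 1.03% ± 0.11 of their stranded counts in wild type. The share was 1.02% ± 0.01 in Tfap2a+/- and 1.03% ± 0.03 in the libraries labelled Tfap2b+/- (SD, n = 3). The exact permutation p was 0.8 and 1 for the heterozygotes against wild type. Nothing is read from this test, since the stranded counts include the sense counts with which the list was chosen. The antisense counts can also include reads of overlapping genes on the opposite strand.

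The wider chromatin machinery was read from 157 further genes in 9 lists, of which 155 passed the filter. These genes were chosen by function and not for how they moved, though with earlier results of these data known. None was called by edgeR in any comparison. At an unadjusted p under 0.05 edgeR gave 4 higher and 5 lower in the libraries labelled Tfap2b+/- (all genes: 6.46% and 4.15%). In Tfap2a+/- there were 1 higher and 2 lower (all genes: 2.15% and 1.68%). Between the heterozygotes there were 8 each way (all genes: 4.98% higher and 6.53% lower). The median log2 fold of the 155 was -0.00 in Tfap2a+/-, with 76 above 0 (48.2% of all genes). In the libraries labelled Tfap2b+/- it was 0.01, with 82 above 0 (49.7% of all genes). Groups lay apart upward for 11, or 7.10%, and downward for 8 in the libraries labelled Tfap2b+/- (all genes: 8.84% and 7.63%). ISWI, INO80 and other remodellers had the highest median of the 9 lists there (0.10, 14 of 18 above 0, 4 with groups apart upward), and other acetyltransferases and other demethylases the lowest (-0.03 each, with 6 and 5 of 14 above 0). The core COMPASS subunits and cofactors that work with the KMT2 and SETD1 enzymes had a median of 0.02 (8 of 13 above 0). Other histone methyltransferases had -0.01 (8 of 17, with groups apart upward for 1 and downward for 2). SWI/SNF subunits outside the list had -0.02 (9 of 21), Polycomb genes 0.05 (14 of 23), NuRD and deacetylase genes -0.01 (12 of 25), and histone H3 chaperones, which hand histones to HIRA and other depositors, 0.02 (6 of 10).

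Of those genes, the smallest p-values in the libraries labelled Tfap2b+/- belonged to Kmt5a, Asxl2 and Baz2b. Kmt5a, which monomethylates H4K20, was at 38.7, 45.4 and 41.1 CPM in the wild-type libraries and 30.6, 34.8 and 33.5 CPM across the libraries labelled Tfap2b+/- (log2 fold -0.34 ± 0.09 SE, edgeR adjusted p = 0.34). Asxl2, a Polycomb-associated gene, was at 34.8, 41.6 and 36.2 against 48.0, 44.2 and 47.7 CPM (0.31 ± 0.09, edgeR adjusted p = 0.37). Baz2b, an ISWI partner with a bromodomain, was at 44.6, 42.0 and 43.5 against 58.1, 51.4 and 47.7 CPM (0.27 ± 0.08, edgeR adjusted p = 0.38). The groups lay apart for all 3 genes. Nothing is read from that, since the genes were picked by p-value in this same comparison. Exon lengths were 5.31, 15.9 and 17.6 kb. Baz2b was also first in the comparison of the heterozygotes (-0.37 ± 0.08, edgeR adjusted p = 0.33), where it was the gene of the 155 that DESeq2 called (adjusted p = 0.027). Bap1 and Kmt5a followed with 0.28 ± 0.09 and 0.29 ± 0.09 (edgeR adjusted p = 0.37 each). In Tfap2a+/- the first were the arginine methyltransferase gene Prmt5 (-0.21 ± 0.08) and the SWI/SNF genes Smarcd1 (0.38 ± 0.16) and Smarcd2 (-0.22 ± 0.10), each at edgeR adjusted p = 0.999.

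Set per kilobase of merged exon, so that genes can be compared, the 41 levels spanned from 1.49 ± 0.25 CPM per kb for Chd7 to 89.9 ± 5.99 CPM per kb for Chd3 in wild type (SD, n = 3). Smarcc2 (70.8 ± 1.63) was next to Chd3, followed by Chd5 (37.9 ± 5.87), Ehmt2 (31.6 ± 0.91), Smarca4 (30.2 ± 0.998) and Chd4 (29.8 ± 1.49), and of these Smarca4 and Chd4 lay within their SD of each other. In the HIRA complex, Ubn1 (9.07 ± 0.67) and Cabin1 (8.49 ± 1.43) lay within their spread of each other. Ubn2 had 3.15 ± 0.16 and Hira 1.90 ± 0.10 CPM per kb. In the libraries labelled Tfap2b+/- the order of the 4 was the same, with Ubn1 at 8.03 ± 1.08, Cabin1 at 7.53 ± 1.04, Ubn2 at 4.39 ± 0.24 and Hira at 1.71 ± 0.15 CPM per kb. By whole span, introns included, a gene on the same strand overlapped 18 of the 41 members and a gene on the opposite strand 20. Whether exons are shared was not examined, and counts in any shared exon of the same strand are uncertain. Merged exons overstate the length of the RNA where isoforms differ, so these levels rank genes roughly.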

How the data were processed

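RNA was measured in 9 libraries of mouse brain, 3 per genotype, by strand-specific sequencing of polyadenylated RNA. The authors deposited whole-number counts per gene for each library, unstranded and for either strand. Per the submitters' processing notes, the tools were STAR 2.6.1d, cutadapt 2.4 and edgeR, with GRCm38.p6 as the build. No source used here gives the annotation release. The reverse-strand counts were used, as dUTP libraries require per the labels' protocols. Of 54446 identifiers, 54409 matched GENCODE M21 (same build, versions ignored), which gave symbols, coordinates and merged exon lengths. Summary rows without a gene were left out of totals and fits (fragments assigned to no feature were 7.30% to 11.8%).

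Genes passing filterByExpr (17355) were fitted in edgeR 4.0.16 (R 4.3.3) with TMM scaling and the quasi-likelihood test, genotype as the only term, all 9 libraries sharing the spread, and Benjamini-Hochberg adjusted p under 0.05 as the call. DESeq2 1.42.0 was an alternative, and the tests were tried on simulated data. Log2 CPM for likeness used a prior count of 2. "Apart" means that every library of a group lies beyond every library of the other. The members were chosen with earlier results of these data known. The other lists were drawn up by function and not for how their genes moved, but those results were known then too. Genes given in detail were, by rule, the HIRA complex, Pou2f1, the 2 largest folds per class, and the 3 smallest p-values of the other genes per comparison. Values of some further members, among them Nsd1, Smarcc2, Chd6 and Chd8, were given outside that rule. A count of 0 would allow up to 0.103 to 0.137 CPM (3 counts), which covers counting error only. No 2 libraries of a genotype agreed within sampling noise (chi-square per degree of freedom of 18.7 or more).

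Same-numbered libraries of different genotypes had deviations that correlated from -0.35 to 0.34, and other pairs from -0.39 to 0.37. No pairing by number was seen. Differences in marker content between libraries could hide one, so it is not excluded.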

Additional observations from a re-analysis of the deposited data

How the results depend on the processing

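The alternatives were DESeq2, its size factors in edgeR, TMM over protein-coding genes, no low-count filter, unstranded counts, a replicate block, only the 2 groups compared, a robust fit, each library left out in turn, and the 3 marker-high libraries left out together. The log2 fold of Ubn2 kept its direction under all 18 in each comparison, and so did the member median. Genes called numbered 0 in each comparison. For Tfap2a+/- they numbered 2 without a low-count filter and 30 with DESeq2, and 0 to 3 with a library left out (3 without Tfap2a+/- library 2). For the libraries labelled Tfap2b+/- they numbered 175 with DESeq2, 2 without the marker-high libraries, and 0 to 4 with a library left out (4 without library 3 of that group). Between the heterozygotes they numbered 7 without a filter, 228 with DESeq2, 1 without the marker-high libraries, and 0 to 31 with a library left out (31 without library 3 labelled Tfap2b+/-). DESeq2 called 1 of the other chromatin genes there, Baz2b. With the replicate block, although no pairing by number was seen, 0 genes were called in each comparison and Ubn2 had 0.48 in the libraries labelled Tfap2b+/-. With a library left out, the lowest and highest member medians were 0.03 and 0.13 in the libraries labelled Tfap2b+/- (lowest without library 3 of that group, 25 of 41 above 0), 0.00 and 0.06 in Tfap2a+/-, and -0.11 and -0.03 between the heterozygotes. Ubn2 ran from 0.45 to 0.52, from 0.08 to 0.15 and from -0.42 to -0.33. The 3 marker-high libraries were chosen with these data known. Why DESeq2 called more genes was not tested. The depth gave Hira, the least counted member, 228 counts or more.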
